A study of Mus musculus with 36 samples.

Results

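Expression of 7 genes was followed in the lungs of mice that had received crude oil, a dispersant or both. They were taken by their symbols from a table of 18 female mice and a table of 18 male mice: Chil1, Chil3, Chil4, Retnla, Alox15, Il4ra and Il13ra1. All 7 were listed in both tables, among 17716 genes found in both under a name that was not repeated. The RNA came from the left lung of wild-type C57BL/6 mice that were 8 weeks of age at the first dose, with 3 female and 3 male mice in each of 6 groups. The groups received saline, MC252 oil from the Macondo well (oil), the dispersant Corexit 9500 (9500), the dispersant Corexit 9527 (9527), 9500+oil or 9527+oil. Each agent was given as a 0.1 dilution of its saline-accommodated fraction, a fraction mixed in Hank's balanced salt solution, on days 0, 7 and 13, and the mice were killed on day 14. The study's methods give oropharyngeal aspiration as the route. Both combinations held the dispersant at the same ratio to the salt solution as the dispersant alone. The oil group received only the saline phase after separation, whereas the mixtures with a dispersant were used without separation. A separate mouse stood behind each library, so the spread between replicates is a spread between mice of one strain and age.

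Il4ra and Il13ra1 encode the chains of the type II receptor through which IL-4 and IL-13 activate the transcription factor STAT6. In mouse macrophages this signal turns on the secreted proteins Retnla (Relm-alpha, Fizz1) and Chil3 (Ym1), which are used as marks of alternative activation. Chil3, Chil4 (Ym2) and Chil1 (BRP-39) bind sugar chains like chitinases but lack the residues needed to cut chitin. Chil3 is abundant in mouse alveolar macrophages, whereas Chil4 and Retnla are also made by airway epithelium during allergic inflammation. Alox15 encodes the lipoxygenase that oxidizes arachidonic and linoleic acid. In RNA of whole lung, fewer cells of a type and less RNA per cell cannot be told apart.

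Chil3 and Chil4 are neighbours that arose by duplication, which touches both their sequence and the way reads can be assigned to them. In the GENCODE M21 annotation of GRCm38, Chil3 lies at chr3:106147554-106167564 and Chil4 at chr3:106201490-106219507, both on the minus strand and 33925 bases apart. Of the 31-base words in their transcripts, 470 occur in both genes. They make up 28.9% of the words of Chil3 and 16.9% of those of Chil4. With all other genes counted, Chil3 shares 41.5% of its words and Chil4 19.2%, so the assignment of reads to both is uncertain. Retnla shares 5.45% of its words, all with Retnlg, and Chil1, Alox15, Il4ra and Il13ra1 share 0%. Retnla lies at chr16:48842551-48844461 on the plus strand and Alox15 at chr11:70344152-70352031 on the minus strand. On the plus strand are Chil1 at chr1:134182176-134190181, Il4ra at chr7:125552120-125579474 and Il13ra1 at chrX:36112110-36171259.

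Sequence upstream of the start was looked at in RefSeq (GRCm38.p6), whose promoter table held 6 of the 7 genes, and is shown for the 3 secreted proteins whose levels varied most. The window of 200 bases ends 51 bases before the start. Capitals mark the letters TTC followed by GAA after 3 bases of any kind, a motif of STAT factors in general, or after 4 bases, the spacing favoured by STAT6. Both motifs read the same on either strand, and the matches shown do not overlap. The last 8 bases of the window of Retnla lie after its start in GENCODE.
Chil3, chr3:106167615-106167814, minus strand: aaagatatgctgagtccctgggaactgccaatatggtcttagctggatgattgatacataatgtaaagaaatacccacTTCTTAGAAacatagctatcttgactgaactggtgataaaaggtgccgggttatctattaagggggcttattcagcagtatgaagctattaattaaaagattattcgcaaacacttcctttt
Chil4, chr3:106219530-106219729, minus strand: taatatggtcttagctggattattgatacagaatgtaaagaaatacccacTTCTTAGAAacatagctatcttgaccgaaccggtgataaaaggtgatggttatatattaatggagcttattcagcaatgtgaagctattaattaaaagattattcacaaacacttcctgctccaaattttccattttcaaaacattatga
Retnla, chr16:48842359-48842558, plus strand: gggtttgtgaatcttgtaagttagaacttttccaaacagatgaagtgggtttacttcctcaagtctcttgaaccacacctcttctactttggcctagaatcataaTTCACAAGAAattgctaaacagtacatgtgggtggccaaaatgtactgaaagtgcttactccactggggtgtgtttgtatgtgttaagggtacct
The windows of Chil3 and Chil4 were identical at 156 of 171 aligned bases (91.2%) and each held the motif with 3 bases between once. Retnla held the motif with 4 bases once. In the windows of Chil1, Il4ra and Il13ra1 neither motif occurred. The window of Il4ra, chr7:125552021-125552220, runs past its start in GENCODE, so only a part of it is upstream by that annotation. Among all 32851 promoters of the same length, 5.76% held the motif with 3 bases and 4.78% that with 4. A match describes the letters only, and binding was not measured.

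Total counts ran from 17501180 to 30011557 per mouse. Levels are given as CPM, counts scaled to a common effective library size within each table, so levels of female and male mice stand side by side and were not tested against each other. Mitochondrial genes took 20.67 to 45.09% of the counts in 4 female libraries (saline mouse 3, oil mouse 6, 9527 mouse 11 and 9500+oil mouse 14) and 5.27 to 11.34% in the other 32. In the same 4 libraries Chil1 was the lowest of its group, between 353 and 488 CPM, and Il13ra1 the highest, between 74.2 and 142 CPM. Several results in females are given also without them. Per kilobase of exon and in saline mice, Retnla (544 CPM per kb), Chil1 (382) and Chil3 (218) were the most abundant of the 7 genes in females, and Chil1 (342) and Chil3 (262) in males. Alox15 stood at 2.07 of these units in females and 0.962 in males.

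Corexit 9527 gave the highest mean of Chil3, Chil4 and Retnla among the 6 groups in both sexes. Retnla stood at 1880, 808 and 599 CPM in the 9527 females against 107, 547 and 325 CPM in the saline females. In males it was 168, 925 and 288 CPM with 9527 against 29.5, 23.6 and 32.5 CPM with saline. Every 9527 mouse was therefore above every saline mouse of its sex, by a wide margin in males and a narrow one in females. Retnla was the 1 of the 7 genes for which this held, and of all genes tested 0.96% lay above saline in every 9527 mouse of both sexes. Chil3 was 1770, 933 and 847 CPM in 9527 females against 375, 413 and 278 CPM in saline females. The male values of Chil3, 479, 1190 and 766 CPM, overlapped those of saline (359, 413 and 512 CPM). Chil4 was far less abundant and more variable. It measured 70.2, 34.2 and 9.75 CPM in 9527 females against 1.18, 27.4 and 12.6 CPM, where the groups overlapped. In males it measured 2.35, 14.2 and 7.5 CPM against 0.0498, 0.526 and 0.632 CPM, where they did not.

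**Figure D1:**
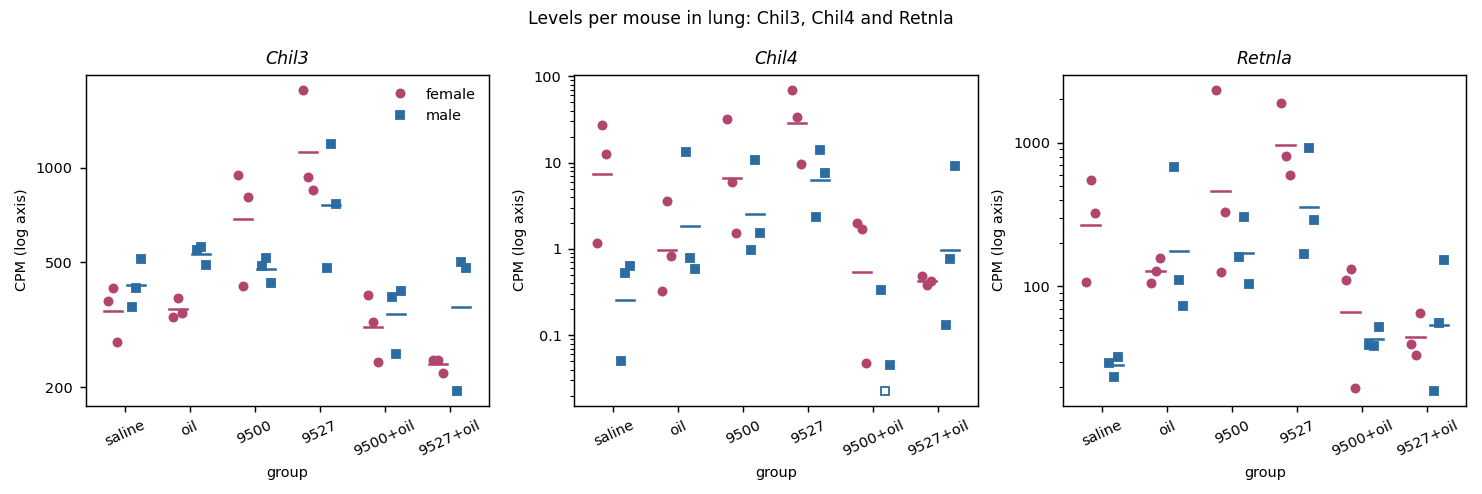
CPM on a log axis of Chil3, Chil4 and Retnla in each mouse by group, with circles for females, squares for males, lines for geometric means of 3 mice and open symbols at the bottom for a count of 0. The 9527 mice reach 1880 CPM of Retnla and 1770 CPM of Chil3, and the 9527+oil mice stay at or below 152 and 500 CPM.

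Against saline and over both sexes, 0 of the 7 genes passed an adjusted p of 0.05 in the 9527 mice by edgeR's quasi-likelihood test, where 5 of 15107 genes did (0.0331%). An unadjusted p under 0.05 was found for 4 of 7 (Chil3, Chil4, Retnla and Alox15), beside 2.87% of all genes. All 7 had a log2 fold change above 0, with a median of 0.83, where the median of all genes was 0.01. The log2 fold change of Retnla was 2.87 ± 0.65 (SE, n = 6 mice a group, adjusted p = 0.39 by edgeR). For Chil3 it was 1.32 ± 0.29 (adjusted p = 0.36) and for Chil4 2.76 ± 0.95 (adjusted p = 1). Whether the differences of Chil3 and Retnla passed the threshold turned on the way of testing, while their direction did not. DESeq2, the tool of the study, called 2 genes with adjusted p of 0.00456 for Chil3 and 0.000682 for Retnla, among 0.834% of all genes. The voom fit with sample weights called Chil3 and Retnla too, among 5.39% of all genes. A fit of all 6 groups called Chil3, beside 0.689% of all genes. Without the 2 libraries here that were rich in mitochondrial counts, edgeR called Chil3 (adjusted p = 0.0431) and Retnla (0.0331), beside 2.25% of all genes. The 5 genes called over the whole table became 2 when edgeR used the size factors of DESeq2 or upper-quartile scaling, and 0 of the 7 were among them.

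**Figure D2:**
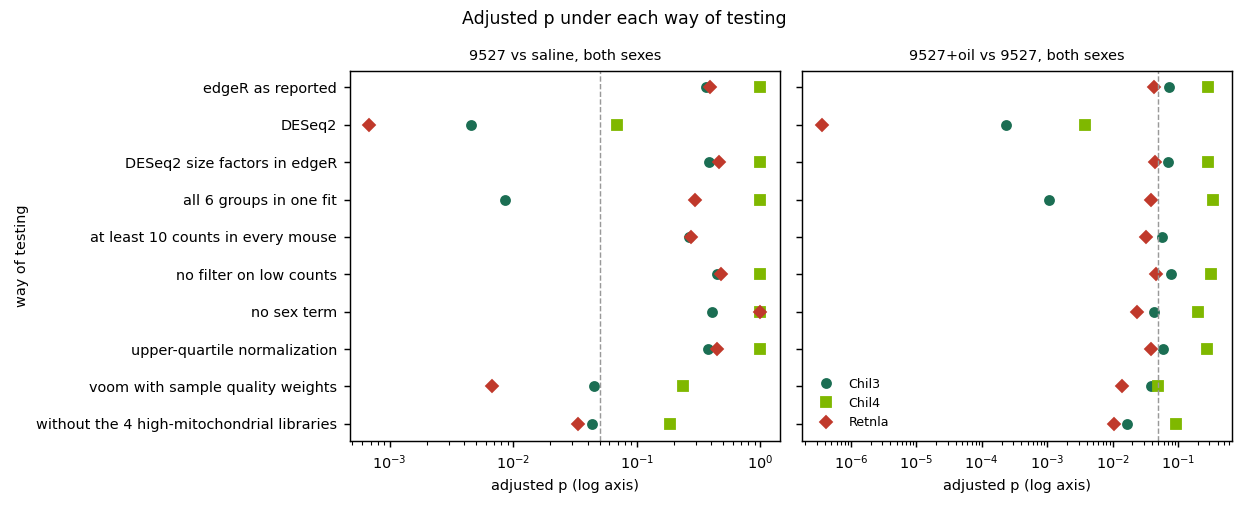
Adjusted p on a log axis for Chil3, Chil4 and Retnla under edgeR as reported and 9 other ways of testing, for 9527 against saline and for 9527+oil against 9527, with a dashed line at 0.05. For 9527 against saline Chil3 lies between 0.00456 and 0.446, and for 9527+oil against 9527 Retnla lies below the line in all 10.

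Within the sexes, 0 of the 7 genes passed for 9527 by edgeR in females, where 0 of 15004 genes did (0%), and 0 in males, where 0.114% of 14919 genes did. In males, 4 had an unadjusted p under 0.05 (Chil1, Chil3, Chil4 and Retnla) beside 13.7% of all genes, and 3 (Chil1, Chil4 and Retnla) lay above saline in every mouse beside 10.5%. The male log2 fold changes were 4.02 ± 0.59 for Retnla (edgeR, adjusted p = 0.0558) and 4.29 ± 0.80 for Chil4 (0.0763). Chil4 had 1, 10 and 14 counts in the saline males and passed the filter on low counts only through the treated males, for 9500 and oil as well, so it had to be higher there. Its fitted fold and its calls in males therefore count as no support. DESeq2 called Chil1, Chil4 and Retnla in males, beside 3.98% of all genes, and voom called Retnla, beside 0.744%. Of 6 edgeR fits that each left out 1 male, Retnla passed in 3, those without 9527 mouse 10 (adjusted p = 0.0343), mouse 11 (0.0122) or mouse 12 (0.0176), beside 0.0462, 0.0595 and 1.39% of all genes, and its adjusted p was as high as 0.23 in the others. Without mouse 11 its log2 fold change was 3. In females only Chil3 had an unadjusted p under 0.05, with a log2 fold change of 1.73 ± 0.46, beside 0.267% of all genes. Without the 2 libraries of this comparison that were rich in mitochondrial counts it was 1.74 (adjusted p = 0.409). Chil3, Retnla and Alox15 of all 3 females lay above saline, beside 2.92% of all genes. DESeq2 and voom called 0 of the 7 genes in females, where they called 0.04% and 0% of all genes.

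With Corexit 9500, none of the 7 genes passed over both sexes. The log2 fold changes of Retnla, Chil3 and Chil4 were smaller than with 9527, and that of Alox15 was larger (1.06 against 0.83), differences whose tests are given with the comparison of the dispersants. Retnla was 160, 305 and 104 CPM in 9500 males, all above the saline males. In females it was 2340, 126 and 327 CPM, so female mouse 7 alone exceeded the saline females, and its level was the highest of all 36 mice. Chil3 was 947, 421 and 804 CPM in 9500 females, all above saline, and 486, 517 and 429 CPM in males, within or just above the saline range. Alox15 was 4.5, 6.21 and 8.8 CPM in 9500 males against 2.39, 2 and 2.71 CPM in saline males, and the groups did not overlap. By edgeR, 0 of 7 genes and 0 of 15211 genes (0%) passed over both sexes. DESeq2 and voom called 0 of the 7 as well, beside 0.0329% and 0% of all genes. An unadjusted p under 0.05 was found for 3 of 7, beside 2.26% of all genes. Their log2 fold changes were 2.12 ± 0.68 for Retnla, 1.06 ± 0.42 for Alox15 and 0.59 ± 0.24 for Chil3, each with an adjusted p of 0.97. In males, edgeR called 0 of the 7 beside 0.00662% of all genes, with 3 at an unadjusted p under 0.05 (Chil4, Retnla and Alox15) beside 6.35%. The share of all genes above saline in every 9500 male was also 6.35%, and the same 3 genes were among them. DESeq2 called Retnla and Alox15 in males, beside 0.324% of all genes, and voom called 0, beside 0%. Without male 9500 mouse 9, Retnla of males had a log2 fold change of 3.02 and an adjusted p of 0.0162 by edgeR, beside 0.0394% of all genes called, against 2.73 and 0.247 with it. In females, 0 of 7 passed in edgeR, where 0% of 14839 genes did, and DESeq2 and voom also called 0 of the 7, beside 0.0135% and 0% of all genes. Chil3 alone had an unadjusted p under 0.05 beside 0.364% (log2 fold change 1.03 ± 0.42, and 0.88 with an unadjusted p above the threshold without saline mouse 3), and it alone lay above saline in all 3 mice beside 3.54%.

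The dispersants themselves were compared at the same dilution. Chil3 in the 9527 mice differed from that in the 9500 mice by 0.73 ± 0.28 on the log2 scale. For Alox15 the difference was -0.23 ± 0.43 and for Chil4 1.2 ± 0.80. For Retnla the difference was 0.75 ± 0.68 and its 95% interval ran from -0.58 to 2.08, which does not show that the 2 dispersants acted alike. By edgeR 0 of the 7 genes passed (lowest adjusted p = 0.794), beside 0% of 15184 genes, and 1 (Chil3) had an unadjusted p under 0.05 beside 3.31%. DESeq2 and voom called 0 of them, beside 0% and 0.0132% of all genes.

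Oil alone gave higher levels of Retnla and Chil1 in males and lower values of Retnla and Chil4 in females, none of which passed by edgeR. Retnla in the oil males was 678, 110 and 73 CPM, all above the 23.6 to 32.5 CPM of saline. In oil females it was 105, 129 and 157 CPM, within or just below the saline range. Chil4 in oil females was 0.325, 3.56 and 0.823 CPM, with 2 of the 3 below all saline females. The female log2 fold changes were -1.39 ± 0.61 for Retnla and -3.18 ± 1.35 for Chil4 (edgeR, adjusted p = 1 for both), and -1.48 and -2.88 without the libraries rich in mitochondrial counts. Chil4 had 8, 87 and 14 counts in the oil females and passed the filter on low counts only through the saline females. Its fitted fold there therefore counts as no support. Chil1 was 1930, 1380 and 1510 CPM in oil males against 958, 1060 and 854 CPM in saline males, and the groups did not overlap. These 2 were the genes of the 7 above saline in every oil male, beside 7.44% of all genes. In edgeR 0 of 7 passed over both sexes (0% of 15156 genes) and 0 had an unadjusted p under 0.05 (0.435% of all genes did). DESeq2 and voom called 0, beside 0.0066% and 0% of all genes. For males, edgeR called 0 beside 0.00671% of all genes, with 4 at an unadjusted p under 0.05 (Chil1, Chil4, Retnla and Alox15) beside 8.21%. The male log2 fold change was 0.74 ± 0.14 for Chil1 (edgeR, adjusted p = 0.236) and 3.33 ± 0.78 for Retnla (0.319). Without oil mouse 4 that of Retnla was 1.68. DESeq2 called Chil1 in males, beside 1.31% of all genes, and voom called 0, beside 0.0268%. In the oil males all 10 markers of monocytes and interstitial macrophages were higher than in saline, 9 of them at an unadjusted p under 0.05 and 0 at an adjusted one, and their sum was 864 to 1170 CPM against 628 to 732 CPM. Of 10 neutrophil markers 7 were higher there, 4 at an unadjusted p under 0.05, and their sum was 344 to 1020 CPM against 300 to 326 CPM. The part of these cells in the levels of Retnla and Chil1 was not tested. For females, edgeR called 0 of the 7 and 0% of 14837 genes, DESeq2 and voom called 0 of the 7 and 0% of all genes, and 0 had an unadjusted p under 0.05 beside 0.108%.

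Where oil was given together with Corexit 9527, Retnla fell relative to Corexit 9527 alone. Retnla was 39.6, 33.4 and 65.2 CPM in 9527+oil females and 18.8, 55.8 and 152 CPM in 9527+oil males. Each of these 6 values lay below the lowest value of the 9527 mice of the same sex, 599 and 168 CPM. Among all genes, 3.43% lay below 9527 in every 9527+oil mouse of both sexes. Chil3 was 244, 245 and 222 CPM in 9527+oil females, far below the 847 CPM or more of 9527, but the male values of 195, 500 and 479 CPM overlapped those of 9527. Chil4 was 0.488, 0.385 and 0.425 CPM in 9527+oil females and 0.13, 0.77 and 9.07 CPM in males, where mouse 18 overlapped the 9527 mice. The male value of 0.13 CPM rests on 3 counts. In females alone, 12.4% of all genes lay below 9527 in every 9527+oil mouse, among them Retnla, Chil3, Chil4 and Il13ra1. Il13ra1 was 52.3 to 57.9 CPM in 9527+oil females against 61.5 to 105 CPM in 9527 females. In males alone the share of all genes was 9.34%, with Retnla among them but not Chil3, Chil4 or Il13ra1.

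The direct comparison of 9527+oil with 9527 called 1 of the 7 genes by edgeR, Retnla, which was lower, beside 0.579% of 15189 genes. Its log2 fold change was -3.58 ± 0.68 (edgeR, adjusted p = 0.0424), with n = 6 mice a group. Chil3 differed by -1.68 ± 0.36 (adjusted p = 0.0716) and Chil4 by -3.66 ± 1.35 (adjusted p = 0.287). These 3 had an unadjusted p under 0.05, beside 14.2% of all genes. DESeq2 and voom called all 3, beside 4.12% and 10.5% of all genes. Retnla passed in all 9 other ways of testing. With 6 mice a group its call did not withstand the loss of most single mice. In 12 fits that each left out 1 mouse, Retnla passed in 3, with adjusted p from 0.0104 to 0.195. Those were the fits without female 9527 mouse 11, male 9527 mouse 12 or male 9527+oil mouse 18, which called 6.82, 0.851 and 0.0523% of all genes. The fit without female 9527 mouse 11 is also 1 of the 9 other ways of testing, that without libraries rich in mitochondrial counts. Over the 12 fits its log2 fold change stayed between -4.14 and -3.21. Without female 9527 mouse 11, the library rich in mitochondrial counts, Chil3 passed too (adjusted p = 0.0166). Against saline and over both sexes, the log2 fold changes of Chil3, Chil4 and Retnla in 9527+oil mice were -0.37 ± 0.23, -1.06 ± 2.48 and -0.72 ± 0.97. In that comparison edgeR called 0 of 7 and 0% of 15214 genes, DESeq2 and voom called 0 of the 7 beside 0.0197% and 0% of all genes, and 1 (Alox15) had an unadjusted p under 0.05 beside 2.94%.

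**Figure D3:**
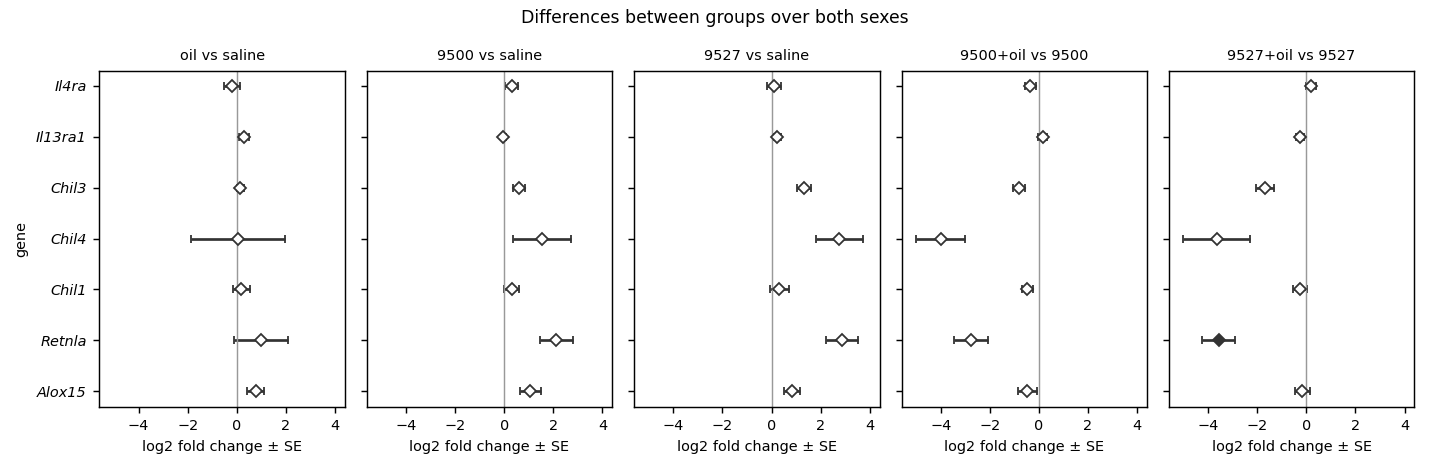
Log2 fold changes ± SE of the 7 genes over both sexes (n = 6 mice a group) in 5 comparisons, with filled diamonds for an adjusted p under 0.05 by edgeR. The 1 filled diamond is that of Retnla (-3.58) in 9527+oil against 9527.

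Adding oil to Corexit 9500 gave differences of the same sign that did not pass. Retnla was 111, 133 and 19.8 CPM in 9500+oil females and 38.9, 38.7 and 51.9 CPM in 9500+oil males. With 9500 alone Retnla was 104 to 305 CPM in males and 126 to 2340 CPM in females. How often other genes lay apart between these groups was not counted. Chil4 had 7, 0 and 1 counts in the 3 male 9500+oil mice, which is at or near the 3 counts that a count of 0 allows, so its difference was at the limit of this depth. Against 9500, the log2 fold changes were -2.77 ± 0.68 for Retnla, -4.01 ± 1.01 for Chil4 and -0.82 ± 0.23 for Chil3, all with an adjusted p of 0.999 by edgeR. In edgeR 0 of the 7 passed beside 0% of 15156 genes, and these 3 had an unadjusted p under 0.05 beside 1.95%. DESeq2 and voom called 0, beside 0.033% and 0% of all genes. Against saline, 9500+oil gave 0 of 7 calls by edgeR, where 0% of 15105 genes passed, and 0 by DESeq2 and voom, which also called 0% of all genes. Chil4 alone had an unadjusted p under 0.05 in that comparison, beside 0.391%. In both comparisons of 9500+oil, Chil4 passed the filter on low counts only through the 9500 or the saline mice, where it was higher. Its differences there count as no support.

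The receptor chains stayed close to saline with 9527. Il13ra1 lay between 55.5 and 74.8 CPM in all 18 males. Over both sexes its log2 fold change with 9527 was 0.21 ± 0.16, with a 95% interval of -0.11 to 0.52. Il4ra lay between 41.6 and 87.9 CPM in males and its log2 fold change with 9527 was 0.10 ± 0.29 (95% interval -0.47 to 0.68). In females Il4ra ranged more widely, from 15.3 to 69.3 CPM, with 15.3 to 26.6 CPM in the 4 libraries rich in mitochondrial counts. The part of those counts in that spread was not tested. Chil1 ranged from 353 to 2040 CPM in females and from 854 to 1930 CPM in males, with a log2 fold change of 0.32 ± 0.40 with 9527 (95% interval -0.47 to 1.10). Alox15 was low throughout, between 2 and 16.5 CPM. In males it was 4.26, 3.96 and 7.62 CPM with 9500+oil and 5.15, 4.95 and 3.95 CPM with 9527+oil. As with 9500, these values did not overlap saline, beside 7.84% of all genes above saline in every 9500+oil male and 5.73% in every 9527+oil male. Against 9527, the log2 fold change of Alox15 with 9527+oil was -0.17 ± 0.30, with a 95% interval of -0.75 to 0.41.

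**Figure D4:**
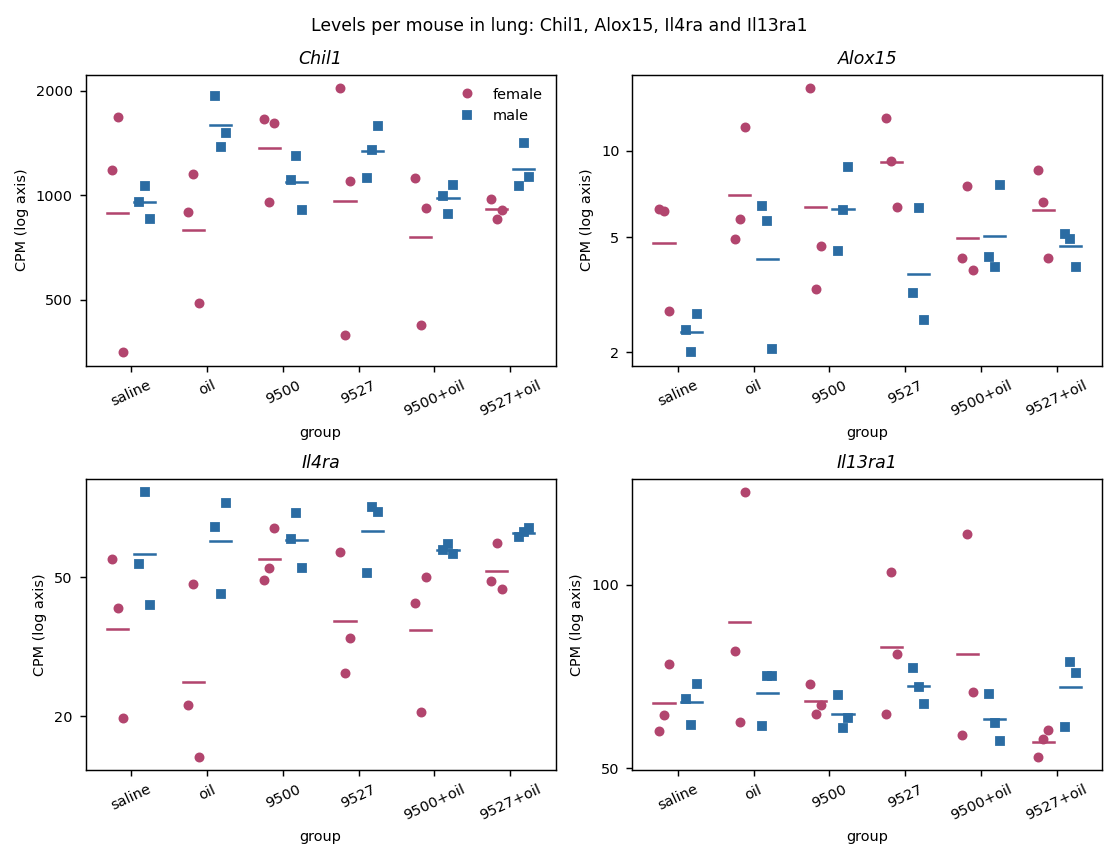
CPM on log axes of Chil1, Alox15, Il4ra and Il13ra1 in each mouse by group, with circles for females, squares for males and lines for geometric means of 3 mice. Il13ra1 of males spans 55.5 to 74.8 CPM over all 6 groups, and Chil1 of oil males lies between 1380 and 1930 CPM.

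Differences among the 6 groups as a whole were tested within each table. In females Chil3 ranked 3 of 15526 genes by p (edgeR, adjusted p = 0.128), and in males Retnla ranked 131 of 15519 (adjusted p = 0.112). By edgeR 0 of 7 passed in females beside 0.0129% of all genes, and 0 in males beside 0.135%. An unadjusted p under 0.05 was found for 3 of 7 in females (Chil3, Chil4 and Retnla) beside 1.35%, and for 4 in males (the same 3 and Chil1) beside 10.4%. DESeq2 called Chil3, Chil4 and Retnla in females, beside 0.309% of all genes, and Chil1 and Retnla in males, beside 3.94%. The voom fit called Chil3, Retnla and Il4ra in females, beside 7.23%, and 0 in males, beside 0.187%. Of 18 edgeR fits that each left out 1 female, Chil3 passed in 1, that without 9500 mouse 8 (adjusted p = 0.0394, beside 0.019% of all genes), and its adjusted p was as high as 0.636 without 9527 mouse 10. Without the 4 libraries rich in mitochondrial counts the adjusted p was 0.667 for Chil3 and 1 for Il4ra. In the order of the 6 means of Chil3 in females, 9527 exceeded 9500 and 9500 exceeded oil by more than both SDs on the log2 scale, and 9500+oil exceeded 9527+oil likewise. Oil, saline and 9500+oil did not differ beyond their spread. In the order of Retnla in males (9527, oil, 9500, 9527+oil, 9500+oil, saline), 9500 exceeded 9527+oil and 9500+oil exceeded saline by more than both SDs, and the other neighbours did not.

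The level of Retnla in saline mice was 107 to 547 CPM in females and 23.6 to 32.5 CPM in males, and that of Chil4 was 1.18 to 27.4 and 0.0498 to 0.632 CPM. In 9527+oil females, Retnla, Chil3 and Chil4 lay below all saline females, beside 7.05% of all genes. These 3 had an unadjusted p under 0.05 there, beside 1.1%, with log2 fold changes of -2.84 ± 0.66, -0.60 ± 0.24 and -4.98 ± 1.16. By edgeR 0 passed in those females (0% of 14869 genes), DESeq2 called Chil4, beside 0.0471%, and voom 0, beside 0.0404%. Chil4 had 15, 9 and 11 counts in these females against 29, 884 and 108 in the saline females. It passed the filter on low counts only through the saline females, where it was high. Its fitted fold, its unadjusted p and its call there therefore count as no support. In 9527+oil males, Retnla had a log2 fold change of 1.4 ± 0.60 against saline, and of 0.38 without mouse 18. By edgeR 0 of 7 passed there beside 0.00669% of 14954 genes, 3 had an unadjusted p under 0.05 (Chil1, Retnla and Alox15) beside 5.54%, and DESeq2 and voom called 0, beside 0.167% and 0%. For 9500+oil in females, edgeR called 0 (0% of 14792 genes) and so did DESeq2 and voom (0% of all genes in both), with 0 at an unadjusted p under 0.05 beside 0.155%. In 9500+oil males 6 of the 7 were tested, since Chil4 was too low, edgeR called 0 of them and 0% of 14889 genes, and DESeq2 and voom called 0 of the 6, beside 0.343% and 0%. Retnla and Alox15 had an unadjusted p under 0.05 there beside 9.22%. Whether a response differed between the sexes was tested with an interaction term. The male minus female difference of the log2 fold change of Retnla was 4.66 ± 1.14 for oil and 4.23 ± 1.02 for 9527+oil, with adjusted p of 1 and 0.948 by edgeR. Without male oil mouse 4 the difference for oil was 3.02, and without male 9527+oil mouse 18 that for 9527+oil was 3.21. In the 5 interactions edgeR called 0 of the 7 beside 0% of all genes, and 2, 0, 1, 1 and 2 of them had an unadjusted p under 0.05 for oil, 9500, 9527, 9500+oil and 9527+oil, beside 1.65, 0.726, 0.352, 0.509 and 2.39% of all genes. DESeq2 called Retnla for oil (0.0911% of all genes) and Retnla and Chil4 for 9527+oil (0.0843%), and voom called Chil1 for oil (0.553%).

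The mice that were high in one of these genes tended to be high in the others. In 6 of the 12 groups of 3 mice, a single mouse had the highest Chil3, Chil4 and Retnla, and in 8 of the 12 a single mouse had the highest Retnla and Chil4. Female 9500 mouse 7, female 9527 mouse 10 and male 9527 mouse 11 were such mice. Over 18 mice of a sex, Spearman's rho of Retnla with Chil4 was 0.89 in females and 0.89 in males, and that of Retnla with Chil3 was 0.85 and 0.76. For Chil3 with Chil4 it was 0.80 in females and 0.78 in males. These values describe mice that share their treatments, and Chil3 and Chil4 also share reads. Without the 4 female libraries rich in mitochondrial counts, rho over the other 14 females was 0.93 for Retnla with Chil4 and 0.93 for Retnla with Chil3. The ratio of Retnla to Chil3 was not constant. It was 0.0571 to 0.0819 in saline males and 0.351 to 0.779 in 9527 males, but 0.284 to 1.32 in saline females and 0.707 to 1.06 in 9527 females. Chil4 was between 0 and 6.63% of the CPM of Chil3 over all 36 mice. The part of shared reads in the level of Chil4 was not tested.

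**Figure D5:**
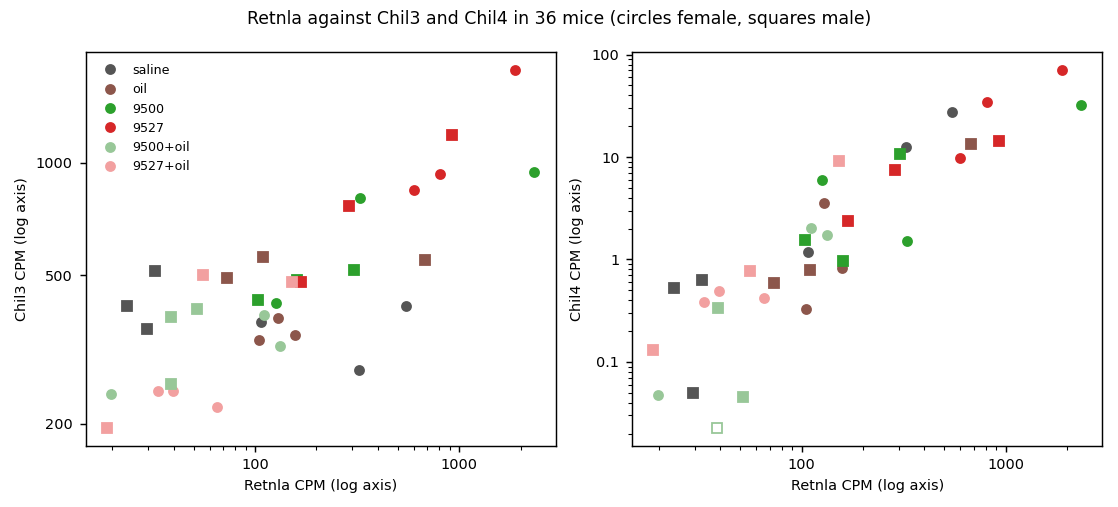
CPM of Chil3 (left) and Chil4 (right) against CPM of Retnla on log axes in 36 mice, circles for females and squares for males, coloured by group, with an open symbol for a count of 0. The 9527 mice lie toward the upper right, up to 1770 CPM of Chil3 and 70.2 CPM of Chil4, and the combinations lie mostly toward the lower left.

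Among 12719 or 12720 genes with a mean of at least 1 on the log2 CPM scale, those with the pattern most like each gene were ranked by the mean of rho over 18 females and 18 males. Nearest to Retnla were the row listed as Clca3 (0.90), Serpina3n (0.88) and Timp1 (0.87), and nearest to Chil4 were Clca3 (0.90), Retnla (0.89) and Agr2 (0.88), a disulfide isomerase of mucus-secreting cells. The files also list Clca1, and which gene stands behind the row Clca3 was not resolved here. Nearest to Chil3 were Slc26a4, an anion exchanger (0.84), Mmp12, the macrophage elastase (0.82), and Retnla (0.80). Chil1 came nearest to C1qb (0.92), Tmem176b (0.88) and Itgax (0.86), Il4ra to Nacc1 (0.88), Furin (0.84) and Ints5 (0.84), and Il13ra1 to Cenpj (0.86), Ptpn22 (0.80) and Nipa2 (0.79). For Alox15 the highest values were 0.59 with Pgm3, 0.58 with 0610007P14Rik and 0.54 with Nnt. In a check added after the data were seen, rho over the 14 females without the 4 libraries was 0.93 for Chil1 with C1qb and 0.72 with Itgax, 0.80 for Il4ra with Nacc1, and 0.95 for Il13ra1 with Cenpj and 0.66 with Nipa2. For all 18 females these were 0.96, 0.86, 0.89, 0.94 and 0.80.

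Other genes of these pathways were read from lists. Il33, the epithelial alarmin that acts on innate lymphoid cells and macrophages upstream of IL-13, was the 1 of 15 tested genes of IL-4 and IL-13 signalling that passed in 9527+oil against 9527. It fell, by -1.33 ± 0.22 on the log2 scale (edgeR, adjusted p = 0.0262), and 0 others of the list passed, where 0.579% of all genes did. An unadjusted p under 0.05 was found for 6 of the 15, with 3 higher and 3 lower, beside 14.2% of all genes. In 9527 mice Il33 was 178 to 306 CPM in females and 149 to 315 CPM in males, and in 9527+oil mice it was 73.7 to 109 and 79.7 to 93.1 CPM, with no overlap, beside 3.43% of all genes below 9527 in both sexes. In 12 fits that each left out 1 mouse, Il33 passed in 2, those without female 9527 mouse 11 or male 9527 mouse 12, with adjusted p from 0.00509 to 0.113. Against saline its log2 fold change in 9527 mice was 1.04 ± 0.29 (adjusted p = 0.642). The ligands were low in most mice and passed the filter on low counts in 0 comparisons with saline. Il4 had group medians of 0.0406 to 0.454 CPM and reached 2.93 CPM in 1 female with 9500, and Il13 had group medians of 0 to 0.155 CPM and reached 0.925 CPM in 1 female with 9527, values named here after they were seen. Of 23 tested markers of alternative activation other than the 7 genes, 17 were higher with 9527 than with saline over both sexes and 0 passed, with a median log2 fold change of 0.30. An unadjusted p under 0.05 was found for 4 of 23, beside 2.87% of all genes, led by Fn1 (fibronectin, 0.71 ± 0.16) and Mgl2 (a macrophage lectin, 0.88 ± 0.26). In 9527 males Fn1 rose by 0.73 ± 0.10 (edgeR, adjusted p = 0.0468, beside 0.114% of all genes), from 914 to 939 CPM in saline to 1410 to 1620 CPM. That call held in 1 of 6 fits with 1 mouse left out, the one without 9527 mouse 12, with adjusted p from 0.0217 to 0.221. In 9527+oil against 9527, 18 of the 23 were lower and 0 passed, with a median of -0.52. Of 15 tested markers of classical activation, 9 were higher with 9527 and 0 passed, with a median of 0.18. Among them Cxcl9, an interferon-induced chemokine, varied among the 6 groups of males (edgeR, adjusted p = 0.045, beside 0.135% of all genes). It was 3.52 to 5.7 CPM in oil and 0.677 to 0.946 CPM in saline, and passed in 5 of 18 fits with 1 mouse left out. Of the relatives, 0 of 4 tested chitinase family genes, 0 of 2 resistin-like genes and 0 of 6 lipoxygenase pathway genes passed for 9527, 9500 or oil over both sexes or in 9527+oil against 9527, with medians for 9527 of 0.29, -0.72 and 0.01. In each of these 3 lists 0 genes had an unadjusted p under 0.05 for 9527. Their smallest p belonged to Chia1 (acidic chitinase, 0.35 ± 0.36), Retn (resistin, -1.39 ± 0.77) and Alox12 (-0.56 ± 0.72).

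Markers of cell types of the lung were read beside the 7 genes. All 13 markers of alveolar macrophages were detected in every group, and their summed level was 752 to 1310 CPM in 9527 females and 694 to 841 CPM in 9527 males, against 571 to 1020 and 580 to 686 CPM with saline. With 9527+oil the sum was 459 to 497 CPM in females, below all saline and 9527 females, and 567 to 693 CPM in males, below all 9527 males. Of these 13, 9 were higher with 9527 than with saline and 11 lower with 9527+oil than with 9527, and 0 passed in either comparison. Itgax, the integrin of alveolar macrophages and dendritic cells and 1 of the 13, varied among the 6 groups of males (edgeR, adjusted p = 0.0492, beside 0.135% of all genes). It was 127 to 153 CPM in oil, 119 to 150 CPM in 9527 and 87 to 93.3 CPM in saline, and passed in 4 of 18 fits with 1 mouse left out. The directions of the 13 within males alone are not given here, so Itgax does not stand for the list. The 10 markers of monocytes and interstitial macrophages summed to 176 to 755 CPM in 9527 females, 115 to 1080 CPM in saline females, 615 to 1130 CPM in 9527 males and 628 to 732 CPM in saline males. With 9527+oil it was 766 to 963 CPM in females and 814 to 978 CPM in males. Eosinophil markers, of which 3 of 5 were listed in both tables, summed to 1.45 to 11.9 CPM in 9527 females, 2.56 to 2.88 CPM in saline females and 0.856 to 1.82 CPM in 9527+oil females. In males, where all 5 were listed, the sum was 1.4 to 3.98 CPM with 9527, 1.1 to 1.24 CPM with saline and 1.37 to 4.33 CPM with 9527+oil. The 1 eosinophil marker tested for 9527 against saline had a log2 fold change of 1.09, both tested for 9527+oil against 9527 were lower with a median of -1.02, and 0 had an unadjusted p under 0.05. The 5 goblet cell markers summed to 334 to 697 CPM in 9527 males against 242 to 303 CPM in saline males, and to 385 to 464 against 213 to 500 CPM in females. With 9527+oil it was 310 to 616 CPM in males and 314 to 383 CPM in females, and 3 of the 5 were lower than with 9527 at an unadjusted p under 0.05 over both sexes, with a lowest adjusted p of 0.0716 by edgeR. The 3 club cell markers summed to 14800 to 18000 CPM in 9527 males against 19600 to 24800 CPM in saline males, and to 9310 to 15400 against 7740 to 19600 CPM in females. Of these, 0 of 3 were higher with 9527 than with saline and 3 of 3 were higher with 9527+oil than with 9527, 2 at an unadjusted p under 0.05 and 0 at an adjusted one by edgeR. The 3 endothelial markers summed to 2410 to 2510 CPM in 9527 males, below the 2750 to 3310 CPM of saline and the 2820 to 2910 CPM of 9527+oil males. In females it was 1660 to 2020 CPM with 9527, 1600 to 2710 CPM with saline and 2720 to 3150 CPM with 9527+oil. All 3 were lower with 9527 than with saline (median -0.33) and higher with 9527+oil than with 9527 (median 0.60), 0 and 1 of them at an unadjusted p under 0.05 and 0 at an adjusted one by edgeR. The 5 alveolar type 2, 4 alveolar type 1, 3 heart muscle and 3 thymus and lymph node markers had median log2 fold changes of 0.08, -0.15, -0.37 and -0.09 with 9527 against saline. With 9527+oil against 9527 these were -0.20, 0.24, 0.44 and -0.07, and 0 passed in either comparison. The 7 markers of innate lymphoid and Th2 cells summed to 33.7 to 40.2 CPM in 9527 males against 22.7 to 26 CPM in saline and 24 to 27.7 CPM in 9527+oil males. In females they summed to 30.5 to 77.8 CPM with 9527, 28.2 to 64.3 CPM with saline and 33.7 to 35.2 CPM with 9527+oil, within the range of 9527. The 10 neutrophil markers summed to 123 to 284 CPM in 9527 males, below the 300 to 326 CPM of saline males, and to 122 to 183 against 176 to 233 CPM in females. With 9527+oil it was 246 to 1320 CPM in males and 163 to 205 CPM in females, and all 9 tested were higher than with 9527 over both sexes, 4 at an unadjusted p under 0.05 and 0 at an adjusted one by edgeR. Against 9527, 14.2% of all genes had an unadjusted p under 0.05. Mast cell and basophil markers, 5 in number, summed to at most 14.4 CPM. The part of any of these cells in the levels of Retnla, Chil3 and Chil4 was not tested.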

How the data were processed

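Left-lung RNA of 36 mice was sequenced from stranded mRNA libraries. The authors estimated reads per GRCm38 transcript with Salmon, whose version is not given in the sources used here, and combined them with tximport. They deposited these expected counts, as whole numbers, in a female and a male table whose rows carry gene symbols, and how transcripts were joined is not given in the sources used here. No rounding was needed. Rows with a repeated, date-like name, 4 per table, were dropped (0.0103% of counts in females and 0.0128% in males). The series' design text names intratracheal instillation as the route and the labels write WAF in place of SAF.

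Genes were tested with edgeR 4.0.16 (quasi-likelihood test, TMM, filterByExpr, Benjamini-Hochberg over all genes tested, threshold 0.05) in R 4.3.3, with sex as a covariate over both sexes. An SE is the size of the log2 fold change divided by the square root of F, and 95% intervals span 1.96 SE. Log2 CPM used a prior count of 2. The study used DESeq2, which is here an alternative (version 1.42.0), as are voom (limma 3.58.1), other scalings, other filters, a fit of all 6 groups, no sex term, leaving out 4 libraries and leaving out each mouse. The fits were tested on simulated data. No pair of libraries agreed within sampling noise (chi-square per gene at least 11.4 in females and 12.5 in males).

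The genes and all lists were chosen with earlier results of these data known. All 7 were described, and 1 further gene of the set is not reported here. From other lists, genes that passed in any comparison and up to 2 with the smallest p for 9527, 9500 or oil over both sexes were named, and for likeness the 3 genes nearest to each of the 7. Gene positions and 31-base words came from GENCODE M21.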

Additional observations from a re-analysis of the deposited data

How the results depend on the processing

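The way of testing decided how many of the 7 genes passed. For 9527 against saline over both sexes the count was 0 in edgeR, beside 0.0331% of all genes. It became 2 with DESeq2 (0.834%), 1 with all 6 groups in one fit (0.689%) and 2 with voom (5.39%). It was also 2 without the libraries of this comparison that were rich in mitochondrial counts (2.25%). Over all genes the count of 5 became 126, 107, 815 and 343 there, 2 with either other scaling or no filter, and 3 with no sex term. In males, where 0.114% of all genes passed in edgeR, it became 3 with DESeq2 (3.98%), 1 with no filter (0.385%), 1 with at least 10 counts in every mouse (0.635%), 1 with all 6 groups in one fit (1.83%) and 1 with voom (0.744%). For 9527+oil against 9527 the count was 1, beside 0.579%. It became 3 with DESeq2 (4.12%), 3 with voom (10.5%), 2 with all 6 groups in one fit (1.02%) and 2 with no sex term (0.559%). Without the libraries rich in mitochondrial counts it was 2 (6.82%), in a fit that left out only female 9527 mouse 11. DESeq2 gave 1 for 9527+oil in females (0.0471%), 1 for oil in males (1.31%) and 2 for 9500 in males (0.324%), where edgeR gave 0. The 1 in 9527+oil females was Chil4, whose call there counts as no support. Across the 6 groups DESeq2 and voom gave 3 in females (0.309% and 7.23%) and DESeq2 gave 2 in males (3.94%), against 0. For the interaction of sex with oil DESeq2 and voom gave 1 (0.0911% and 0.553%), and with 9527+oil DESeq2 gave 2 (0.0843%), against 0. When single mice were left out, the count ran from 0 to 2 for 9527+oil against 9527, from 0 to 1 for 9527 and for 9500 in males, and from 0 to 1 across the 6 groups in females, and the share of all genes ran from 0% to 6.82, 1.39, 0.0394 and 0.0253%. The cause was not tested. Of 43 single-gene differences with an unadjusted p under 0.05, 0 changed sign under any alternative that gave a value. They were picked by that p and refitted on the same or nearly the same mice, so a stable sign was likely beforehand. Only 1 of the 43 had passed the adjusted threshold at first, so most values that stayed on their side were never calls. Of 334 values under alternatives other than leaving out a mouse, 306 stayed on their side of the threshold and 28 newly passed. Of 390 with 1 mouse left out, 376 stayed, 5 newly passed and 9 no longer passed. With at least 10 counts in every mouse, Chil4 gave no value in any comparison with saline over both sexes. Scaling moved the median of all genes by less than 0.1 on the log2 scale. No paired analysis was possible because the groups compared within a sex share no mouse number, and female and male mice of one number are different animals. At the depth of these libraries Chil4 was often at few counts, so small differences in it were not detectable.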
